A study of Mus musculus with 12 samples.

Results

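The genes described are 9 heavy chain genes of mouse MHC class I, chosen by symbol from the 43629 Ensembl identifiers of the deposited count table: H2-K1, H2-D1, H2-Q4, H2-Q6, H2-Q7, H2-T22, H2-T23, H2-T24 and H2-M3. All 9 have a row. RNA was sequenced from neuronal cultures of mouse cortex in 12 libraries, 6 titled Control and 6 titled IFNG. The series describes the IFNG cultures as exposed without pause to interferon-gamma through a lentivirus that overexpresses Ifng. The protocol text, the same for both groups, places transduction at 7 days in vitro and harvest 10 days later, and does not tell which construct the Controls got, if they got one. The labels name no strain, age, sex or promoter of the construct, and no culture or animal behind each library, so p-values measure the spread between these libraries, which may be technical.

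A class I heavy chain pairs with the light chain beta-2-microglobulin and holds a short peptide made in the cell, which it shows to CD8 T cells at the surface. H2-K1 and H2-D1 encode the classical molecules, which present a broad range of peptides. The Q, T and M genes encode non-classical molecules with narrower tasks. Neurons are known for low class I levels at rest, and interferon-gamma is a known inducer of class I genes through IRF1 and the class I transactivator NLRC5, among others.

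All 9 genes lie on chromosome 17 in build GRCm38. H2-K1 (ENSMUSG00000061232) spans 33996017 to 34000347 on the minus strand, apart from the others. H2-D1 (ENSMUSG00000073411, 35262730 to 35267499), H2-Q4 (ENSMUSG00000035929, 35379617 to 35385290), H2-Q6 (ENSMUSG00000073409, 35424850 to 35430055) and H2-Q7 (ENSMUSG00000060550, 35439155 to 35443773) follow on the plus strand. H2-T24 (ENSMUSG00000053835, 36005695 to 36020560), H2-T23 (ENSMUSG00000067212, 36029773 to 36032855) and H2-T22 (ENSMUSG00000056116, 36037128 to 36042747) lie together on the minus strand. H2-M3 (ENSMUSG00000016206, 37270220 to 37274484) is on the plus strand.

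RefSeq's promoter table for GRCm38.p6 held 8 of the 9 genes; H2-T24 had no entry. The 250 bases before the start of 4 of them are shown, because they cover the classical, Q, T and M kinds: H2-K1, H2-Q6 and H2-M3 hold the same short interferon-type core, H2-T22 a longer one, and H2-M3 a GAS match as well. They were read 5′ to 3′ on the gene's own strand, at chr17:34000348-34000597 for H2-K1 (minus), chr17:35424600-35424849 for H2-Q6 (plus), chr17:36042743-36042992 for H2-T22 (minus) and chr17:37269984-37270233 for H2-M3 (plus). Capitals mark matches, on either strand, to TTTCNNTTC or a longer form with 1 more T in its last run (cores of the interferon-stimulated response element), TTCNNNGAA (the GAS element), the kappa B motif of enhancer A (the earlier run of capitals in H2-K1 and in H2-Q6), CCAAT (the Y box, ATTGG on the other strand) and TGACGC (the X2 box of class I promoters).
H2-K1: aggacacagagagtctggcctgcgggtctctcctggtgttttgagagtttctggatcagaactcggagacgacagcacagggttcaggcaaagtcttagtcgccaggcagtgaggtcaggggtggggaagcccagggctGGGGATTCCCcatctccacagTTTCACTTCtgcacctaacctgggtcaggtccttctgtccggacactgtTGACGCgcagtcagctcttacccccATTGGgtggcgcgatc
H2-Q6: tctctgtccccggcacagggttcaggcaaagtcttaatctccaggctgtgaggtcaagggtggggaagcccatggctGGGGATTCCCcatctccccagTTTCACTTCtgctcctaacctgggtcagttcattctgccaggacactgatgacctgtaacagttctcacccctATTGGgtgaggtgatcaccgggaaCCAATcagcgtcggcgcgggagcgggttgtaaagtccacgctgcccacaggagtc
H2-T22: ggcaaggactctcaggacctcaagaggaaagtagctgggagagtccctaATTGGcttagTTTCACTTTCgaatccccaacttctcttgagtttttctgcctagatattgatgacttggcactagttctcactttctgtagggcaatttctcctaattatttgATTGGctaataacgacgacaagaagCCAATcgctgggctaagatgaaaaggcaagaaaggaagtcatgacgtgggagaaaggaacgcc
H2-M3: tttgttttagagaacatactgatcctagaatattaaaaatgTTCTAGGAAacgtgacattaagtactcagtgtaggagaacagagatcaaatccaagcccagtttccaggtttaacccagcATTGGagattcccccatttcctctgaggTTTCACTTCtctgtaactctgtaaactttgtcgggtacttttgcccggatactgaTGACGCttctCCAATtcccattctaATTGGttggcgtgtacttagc

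Searched over the full windows of 250 bases before and 50 after the start, TTTCNNTTC was present in 6 of the 8 genes, H2-K1, H2-D1, H2-Q4, H2-Q6, H2-Q7 and H2-M3, and in 7.52% of all 32851 promoters of the table. The longer core was present in the other 2, H2-T22 and H2-T23, and in 3.44% of all promoters. The kappa B motif was present in H2-K1, H2-D1, H2-Q6 and H2-Q7, against 0.107% of all promoters. CCAAT was present in all 8 genes and in 37.4% of promoters, TGACGC in 4 (7.40% of promoters), and TTCNNNGAA only in H2-M3 (8.30% of promoters). The TGACGC match of H2-Q4 lies after the start and on the other strand, while those of H2-K1, H2-D1 and H2-M3 lie before the start on the gene's own strand. No match overlapped a match to another of these motifs. Counting from 0 at the start base, the kappa B match of H2-K1 lies at -111 to -102 and its interferon core at -90 to -82. In H2-Q6 they lie at -173 to -164 and -152 to -144. A match is a description of the letters and was not tested as a binding site.

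The coding sequences are close enough for reads to be shared. H2-Q6 and H2-Q7 were identical at 95.4% of 981 aligned coding bases, and H2-K1 and H2-D1 at 91.5% of 1080. H2-T24 was the most distant, at 61.8 to 65.3% with each of the other 8. Of all stretches of 100 bases in their annotated transcripts, every one of H2-T24 and of H2-M3 was found in no other annotated gene, and 99.0% of those of H2-K1. The share was 96.4% for H2-D1, 96.9% for H2-T23, 88.0% for H2-Q7, 87.0% for H2-Q6 and 85.9% for H2-Q4. It was lowest in H2-T22, at 68.5%: 24.01% of its stretches are also in A930015D03Rik, which is annotated on the opposite strand, and 6.92% in H2-T10. With stretches of 50 bases the shares were lower, at 46.5% for H2-T22, 63.6% for H2-Q4, 65.0% for H2-Q6 and 73.55% for H2-Q7. They were 85.5% for H2-T23, 87.2% for H2-D1, 90.4% for H2-K1, 96.8% for H2-T24 and 99.4% for H2-M3. At that length 31.25% of the stretches of H2-T22 are also in H2-T10. The read length is not given in the sources used here. The values of H2-T22 and of the Q genes are thus uncertain as to which gene their reads came from, and those of the others to a smaller degree.

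Library totals ran from 13875435 to 34239380 counts. Ifng itself was read at 4.98 to 17.9 CPM (counts scaled by library total with TMM composition factors) with the label IFNG, and at 0 to 0.170 CPM with the label Control, so that the groups did not overlap. The pan-neuronal list, from Map2 to Eno2, summed to 5347 ± 307 CPM over Control and to 4330 ± 419 CPM over IFNG (SD, n = 6 per group), and all 10 were detected, as the label of a neuronal culture has it.

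Heavy chain RNA was scarce in Control and abundant in IFNG. The 9 genes together averaged 51.0 ± 9.18 CPM over Control and 4035 ± 1093 CPM over IFNG (SD, n = 6 per group), 79.2-fold more by the ratio of means. The Control libraries ran from 39.2 to 63.0 CPM, with a median of 49.3, and the IFNG libraries from 2780 to 5820 CPM, with a median of 3872. Every IFNG library was far above every Control library. As a share of all counts, the genes went from 0.00517 ± 0.000968% to 0.396 ± 0.101% (SD, n = 6 each). IFNG 3 had the lowest sum and IFNG 5 the highest.

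Tested over 15241 genes with edgeR (quasi-likelihood, Benjamini-Hochberg), 8 of the 9 genes were higher in IFNG (adjusted p under 0.05), none was lower, and H2-T24 did not pass. Among all genes tested, 14.3% were higher and 9.79% lower. The IFNG libraries lay above all Control libraries for the same 8 genes, and for 8.75% of all genes tested; no member lay below all Control libraries, against 4.09% of genes. The median log2 fold change of the 9 was 7.36, against -0.02 over all genes tested. H2-Q6, H2-Q7, H2-T23 and H2-M3 reached the count filter in all 6 IFNG libraries but in only 0, 0, 2 and 4 Control libraries, so they entered the test through the group where they were high. The count of 8 and the p-values of H2-Q6, H2-Q7, H2-T23 and H2-M3 are therefore descriptions. H2-K1, H2-D1, H2-Q4, H2-T22 and H2-T24 are the members at or above the filter's floor of 0.555 CPM in every library of both groups.

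**Figure D1:**
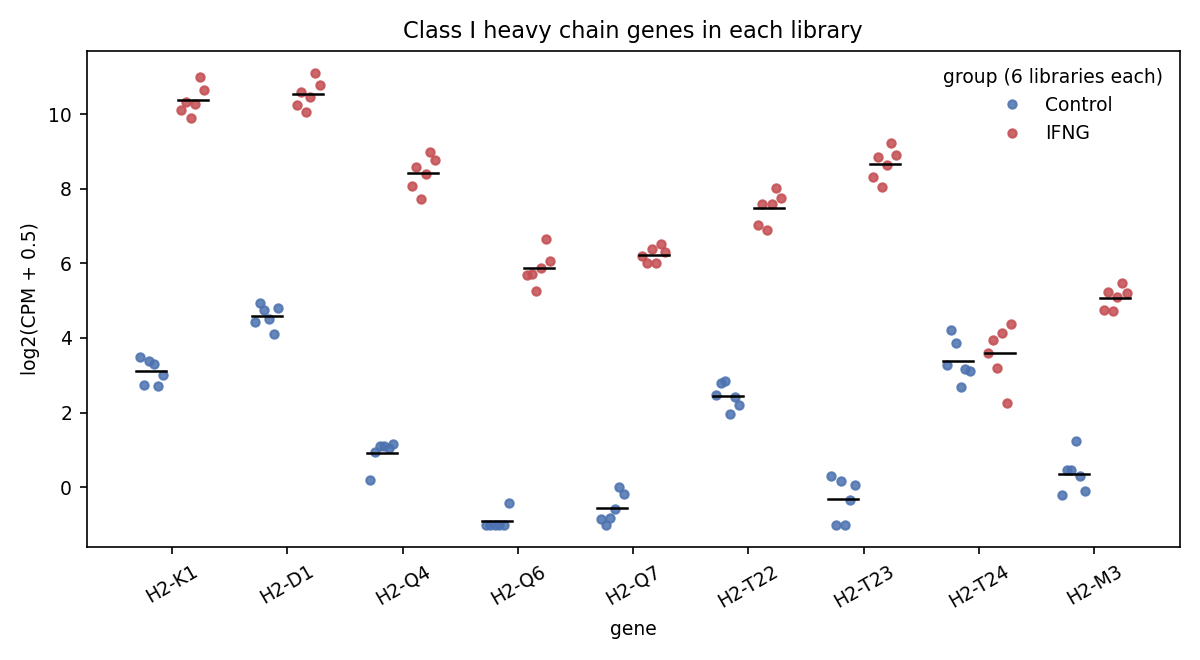
Level of each class I heavy chain gene (x axis) in each library, as log2(CPM + 0.5) on the y axis, with Control libraries in blue, IFNG libraries in red and a black line at the mean of 6. For 8 genes the red points lie above all blue points, while those of H2-T24 overlap.

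The classical genes had the highest levels of the 9 in IFNG, while in Control H2-T24 averaged more CPM than H2-K1. H2-D1 had the highest level in Control, at 16.7 CPM in the lowest library, 24.3 at the median and 30.2 in the highest, and stood at 1070, 1469 and 2183 CPM in IFNG. Its groups did not overlap, and the ratio of means was 63.4 (log2 fold change 5.99 ± 0.19 SE, adjusted p = 4.50e-15). H2-K1 ran from 6.05 to 10.8 CPM in Control, with a median of 8.47, and from 960.2 to 2027 CPM in IFNG, with a median of 1254. It rose 164-fold by the ratio of means (log2 fold change 7.36 ± 0.22 SE, adjusted p = 1.31e-15).

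The pair H2-K1 and H2-D1 moved by different amounts. The log2 ratio of H2-K1 to H2-D1, with 0.5 CPM added to each, averaged -1.49 ± 0.45 over Control and -0.16 ± 0.060 over IFNG (SD, n = 6 per group). The difference of 1.32 was found by an exact two-sided permutation test over 924 arrangements at p = 0.00216, the smallest it can give (adjusted p = 0.00271 over 5 ratios). All 6 IFNG libraries lay beyond all Control libraries. H2-D1 remained the higher of the pair in mean CPM in IFNG, by a smaller ratio.

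The Q genes came up from near absence. H2-Q4, a non-classical gene, ran from 0.634 to 1.74 CPM in Control, with a median of 1.61, and from 212 to 508 CPM in IFNG, with a median of 360. It rose by 7.95 ± 0.25 SE on the log2 scale (adjusted p = 2.78e-15). An annotated antisense gene, Gm11131, overlaps 676 bases of H2-Q4 and also rose, from 22 to 240 counts over each group of 6 libraries. The counts of H2-Q4 were 155 and 46093, so those of the antisense gene were small beside them, but the strand setting of the counting is not given in the sources used here.

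H2-Q6 and H2-Q7 encode Qa-2 antigens, membrane proteins held by a lipid anchor. H2-Q6 had 5 counts in Control, all in Control 6, and 0 in the other 5 Control libraries. In IFNG it ran from 37.7 to 99.3 CPM, with a median of 55.1 (log2 fold change 10.17 ± 0.42 SE, adjusted p = 1.16e-13). Without Control 6 the gene had 0 Control counts, and the rise is then at least 1797-fold against a floor of 3 counts over the group. H2-Q7 had 22 counts over the Control libraries, at most 0.509 CPM, and ran from 63.4 to 91.7 CPM in IFNG, with a median of 75.6 (log2 fold change 8.49 ± 0.28 SE, adjusted p = 6.45e-15). In both genes the IFNG libraries stood far above all Control libraries.

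The log2 ratio of H2-Q6 to H2-Q7 did not pass. It averaged -0.34 ± 0.36 over Control and -0.36 ± 0.43 over IFNG (SD, n = 6 per group), a difference of -0.03 (exact permutation p = 0.894). IFNG libraries ran from -1.14 to 0.11 and Control libraries from -1.01 to 0. Both genes were at 0.509 CPM or less in every Control library, so the ratio there is set mostly by the 0.5 CPM added, and a p that misses the threshold does not show that they respond alike.

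The T genes split. H2-T23 encodes Qa-1, which presents leader peptides of other class I chains to receptors of natural killer cells. It held 39 counts over the Control libraries, with a highest level of 0.739 CPM and 0 counts in 2 libraries, and ran from 265 to 603 CPM in IFNG, with a median of 427. The rise of 10.16 ± 0.35 SE on the log2 scale had an adjusted p of 1.07e-14. H2-T22, a ligand of some gamma-delta T cells, was already present in Control, at 3.39 to 6.69 CPM with a median of 4.97, and ran from 118 to 258 CPM in IFNG, with a median of 192 (log2 fold change 5.19 ± 0.21 SE, adjusted p = 1.00e-13). No IFNG library of either gene came near the Control range.

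The ratio of these neighbouring genes turned over. In Control the log2 ratio of H2-T22 to H2-T23 was 2.75 ± 0.60 and in IFNG it was -1.19 ± 0.097 (SD, n = 6 each). The difference of -3.94 had an exact permutation p of 0.00216 (adjusted p = 0.00271), with all 6 IFNG libraries below all Control libraries. H2-T23 was at 0.739 CPM or less in every Control library and at the count filter's floor in only 2 of them. The size of the Control ratio therefore depends on the CPM added. With 0.1 CPM added instead of 0.5, the difference was -5.09. The members were chosen with earlier results known, so this p is a description.

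H2-T24, a T gene of less known function, was the member that did not pass. It ran from 5.88 to 17.9 CPM in Control, with a median of 8.83, and from 4.30 to 20.3 CPM in IFNG, with a median of 13.3. The groups overlapped, and the highest 2 Control libraries, Control 2 and Control 3 at 17.9 and 14.1 CPM, were above the IFNG median. Its log2 fold change was 0.28 ± 0.30 SE (adjusted p = 0.557), and over all alternatives the adjusted p ran from 0.187 to 0.858. Its lowest value of all libraries was in IFNG 5, at 4.30 CPM, the library with the highest sum of the 9 genes.

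H2-T24 was also compared with H2-T22, which lies on the far side of H2-T23. The log2 ratio of H2-T24 to H2-T22 went from 0.94 ± 0.26 in Control to -3.89 ± 0.92 in IFNG (SD, n = 6 each). The difference was -4.82 (exact permutation p = 0.00216, adjusted p = 0.00271), and all 6 IFNG libraries were below all Control libraries. As H2-T22 rose with no overlap between groups while H2-T24 did not pass, this p restates those results and adds no separate support. Without IFNG 5, which stood apart at -5.75, the difference was -4.45. The span of an antisense gene, A930015D03Rik, introns included, covers all of H2-T24 and H2-T23 and 1308 bases of H2-T22. Its annotated transcripts share stretches of 100 bases with H2-T22, but not with H2-T24 or H2-T23. It held only 51 counts in Control and 58 in IFNG, too few to be tested, against 1130 and 1584 for H2-T24.

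H2-M3, whose product presents formylated peptides, ran from 0.370 to 1.86 CPM in Control, with a median of 0.805, and from 25.7 to 43.8 CPM in IFNG, with a median of 34.9. No library of one group came within the range of the other, and the log2 fold change was 5.30 ± 0.27 SE (adjusted p = 3.68e-12). Its log2 ratio to H2-K1 went from -2.74 ± 0.61 to -5.30 ± 0.17 (SD, n = 6 each). That difference, -2.56, had an exact permutation p of 0.00216 (adjusted p = 0.00271), and all 6 IFNG libraries were below all Control libraries. H2-M3 was at 1.86 CPM or less in Control and at the count filter's floor in only 4 of those libraries. The size of the ratio there therefore depends on the CPM added, and its p is a description. Over all alternatives the difference ran from -2.75 to -2.06, and with a library left out from -2.75 to -2.42.

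The make-up of heavy chain RNA changed with its amount. In Control, H2-D1 gave 47.1 ± 4.48% of the summed CPM, H2-T24 20.3 ± 5.39%, H2-K1 16.7 ± 4.61% and H2-T22 9.98 ± 1.83% (SD, n = 6 each). In IFNG, H2-D1 gave 37.8 ± 0.45% and H2-K1 33.8 ± 1.202%, followed by H2-T23 at 10.36 ± 0.64% and H2-Q4 at 8.79 ± 0.70%. H2-T24 was down to 0.337 ± 0.139% of the sum, with a level of its own that did not pass the test. The part from H2-K1 and H2-D1 together was 57.8 to 70.9% in Control and 70.1 to 73.0% in IFNG libraries, ranges that overlap.

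**Figure D2:**
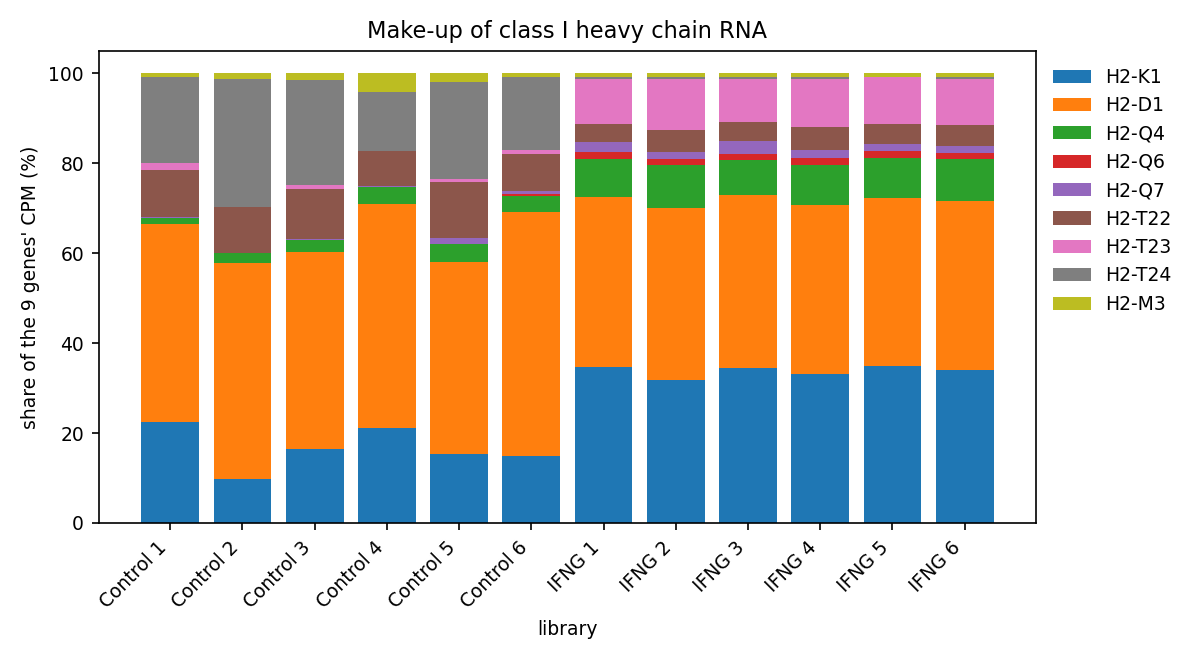
Share of each of the 9 genes in their summed CPM (y axis, percent) in each of the 12 libraries (x axis). The IFNG libraries resemble each other, with H2-K1 and H2-D1 at 70.1 to 73.0% together, while H2-T24 is visible only in Control.

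Per kilobase of annotated exon, the order of levels was also different. In Control it ran H2-D1 (9.33 ± 1.92 CPM per kilobase), H2-T24 (4.86 ± 2.05), H2-K1 (2.83 ± 0.68), H2-T22 (1.49 ± 0.38), H2-M3 (0.599 ± 0.374), H2-Q4 (0.556 ± 0.158), H2-T23 (0.125 ± 0.110), H2-Q7 (0.0464 ± 0.0481) and H2-Q6 (0.0194 ± 0.0474), each as SD with n = 6. Only H2-K1 and H2-T22 were neighbours in that order whose ranges did not overlap. In IFNG it ran H2-D1 (591 ± 156 CPM per kilobase), H2-K1 (465 ± 131), H2-T23 (145 ± 41.9), H2-Q4 (138 ± 41.8), H2-T22 (54.0 ± 15.6), H2-Q6 (29.2 ± 10.12), H2-M3 (23.5 ± 4.77), H2-Q7 (17.7 ± 2.61) and H2-T24 (5.89 ± 2.68). There the ranges did not overlap between H2-K1 and H2-T23, H2-Q4 and H2-T22, and H2-Q7 and H2-T24. H2-D1 was above H2-K1 in each of the 6 IFNG libraries, but with the longest transcript as the length H2-K1 came first on average, at 729 against 725 CPM per kilobase.

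Among the IFNG libraries the members moved together, with 2 exceptions. Over these 6 libraries, deviations in log2 CPM correlated with the mean of the other members that passed at r of 0.947 or more for H2-K1, H2-D1, H2-Q4, H2-Q6, H2-T22, H2-T23 and H2-M3. The r was 0.228 for H2-Q7 and -0.289 for H2-T24. In the 6 Control libraries r ran from -0.556 for H2-M3 to 0.418 for H2-Q6, where H2-Q6, H2-Q7, H2-T23 and H2-M3 had 5 to 91 counts over the group. These correlations describe 6 libraries each, which share their depth and composition, and carry no test.

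The classical genes were higher where Ifng was higher among the IFNG cultures, a relation that passed by r but not by ranks. Over the 6 libraries, Pearson's r of log2 CPM with Ifng was 0.858 for H2-K1 (exact permutation p = 0.025) and 0.901 for H2-D1 (exact permutation p = 0.0181). Both had an adjusted p of 0.025 over these 2 relations. Spearman's rho was 0.829 for each (exact permutation p = 0.0583). Without IFNG 3 and IFNG 5, the libraries farthest from the Ifng median, r was 0.423 and 0.637 over 4 libraries. Leaving out these ends also narrows the range of Ifng, so it cannot tell whether the relation rests on those 2. Beside this, the summed astrocyte markers were lowest in IFNG 3, at 4610 CPM, and reached 7041 CPM in IFNG 5, with their highest value, 7794 CPM, in IFNG 6; their part in the relation was not tested.

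**Figure D3:**
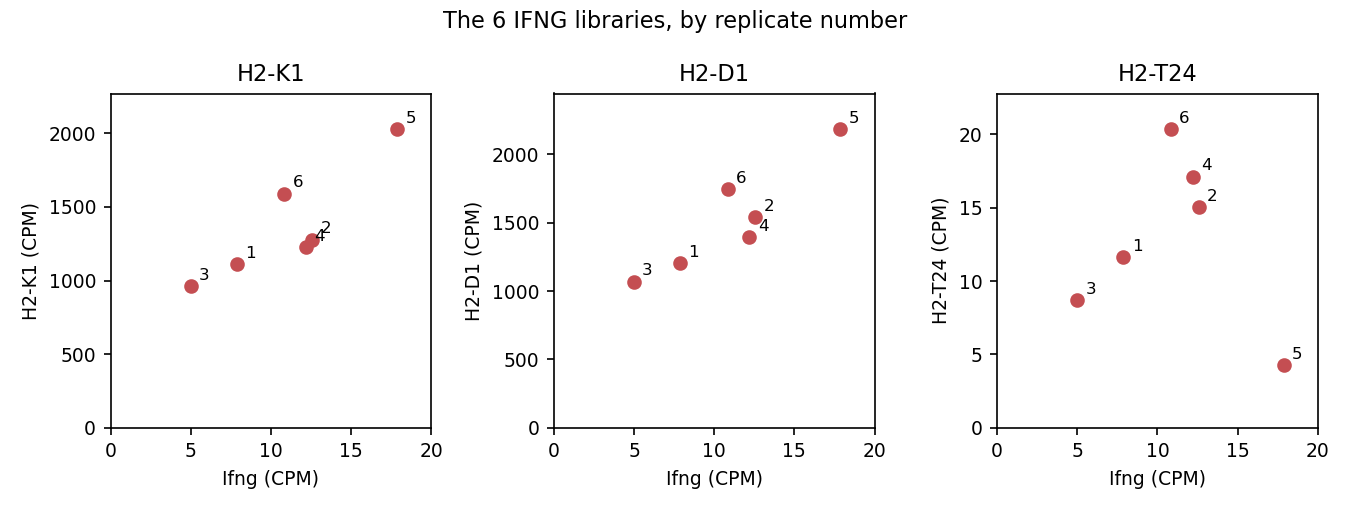
Level of H2-K1, H2-D1 and H2-T24 (y axes, CPM, each from 0) against that of Ifng (x axis, CPM) in the 6 IFNG libraries, labelled by replicate number. Libraries 3 and 5 lie at the ends for H2-K1 and H2-D1, and library 5 is the lowest for H2-T24.

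Other cell types changed beside the heavy chains. All 13 tested of 15 astrocyte markers were higher, at a median of 1.02 on the log2 scale, and their sum went from 2645 to 2896 CPM in Control to 4610 to 7794 CPM in IFNG. Of 10 pan-neuronal genes 4 were lower and 6 did not pass, with a median of -0.27. In bulk RNA, more or fewer cells of a type and more or less RNA per cell cannot be told apart, nor can it be said which cells held the heavy chain RNA. Microglial and macrophage markers summed to 28.0 to 35.0 CPM in Control and 37.3 to 53.8 CPM in IFNG. Of the 4 tested of 14, P2ry12 (8 and 120 counts) and Sall1 were higher. Among those with too few counts to be tested, C1qa held 3 counts in Control and 57 in IFNG, Tmem119 0 and 3, Cx3cr1 22 and 10, and Ptprc 78 and 72. Endothelial markers summed to 1.65 to 3.45 CPM in Control and 2.33 to 5.80 CPM in IFNG. Of these, Ly6c1 was higher by edgeR (adjusted p = 4.92e-08), with 1 count in Control and 310 in IFNG. Alone it averaged 2.44 CPM in IFNG, where the sum averaged 4.15 CPM. Pecam1 did not pass (log2 fold change -0.43 ± 0.46 SE). Counts of Flt1 went from 42 to 19, Emcn from 22 to 6, Cdh5 from 21 to 7, Kdr from 14 to 13 and Tek from 10 to 27, with Cldn5 at 0. Lymphocyte markers summed to 0.436 to 3.28 CPM in Control and 0.328 to 2.28 CPM in IFNG, with Cd3d and Nkg7 at 0. The part of astrocytes in the rise of the heavy chains was not tested.

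The partners of the heavy chains rose too. Of the light chain and peptide loading list all 9 were higher, at a median of 4.30 on the log2 scale. B2m, the light chain, went from 31.9 ± 10.9 to 1962 ± 309 CPM (SD, n = 6 each), a log2 fold change of 5.94 ± 0.20 SE (adjusted p = 7.65e-15). Tap1, which carries peptides into the endoplasmic reticulum, rose by 6.50 ± 0.16 SE, and Tapbp, which holds the empty heavy chain at that transporter, by 4.30 ± 0.16 SE. The general chaperones of the list changed by less: Calr rose by 0.53, Pdia3 by 0.58 and Canx by 0.33 on the log2 scale.

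Of 14 genes of class I transcription 8 were higher, Nfya was lower and 5 did not pass, at a median of 0.47 on the log2 scale. Nlrc5, which acts as the class I transactivator, rose by 7.67 ± 0.32 SE and Irf1, a factor that binds interferon-response elements, by 5.96 ± 0.12 SE. Partners on the X box moved little: Rfx5 rose by 0.56 and Rfxank by 0.54, while Rfxap stood at -0.10 ± 0.12 SE (adjusted p = 0.581) and Creb1 at -0.26 ± 0.12 SE (adjusted p = 0.136). Nfya, a subunit of the factor that binds CCAAT, fell by 0.30 on the log2 scale.

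Most other class I genes of the region were silent or nearly so. Of 25 listed, 21 had a row and 4 had enough counts to be tested, and 8 held no count in any library. H2-Q5 had 1 count in Control and 1229 in IFNG, a ratio of 1070 after scaling (exact 95% interval 192 to 42287, counting error only). H2-T10, which is close in sequence to H2-T22, went from 8 to 1386 counts and rose by 7.12 ± 0.42 SE on the log2 scale (adjusted p = 5.24e-11). H2-Q5 and H2-T10 are annotated as polymorphic pseudogenes. H2-Q7 shares 393 stretches of 50 bases with H2-Q5, and H2-T22 shares 1124 with H2-T10, so the source of their reads is uncertain. Among genes with too few counts to be tested, H2-T-ps went from 2 to 198 counts and H2-K2 from 8 to 131, while H2-M10.2 went from 65 to 32 and H2-Bl from 22 to 16. H2-M5 averaged 4.27 ± 0.87 CPM over Control and 4.10 ± 1.13 CPM over IFNG (SD, n = 6 per group, edgeR adjusted p = 0.904) and H2-Q2 stood at a log2 fold change of 0.37 ± 0.42 SE (adjusted p = 0.581). H2-T24 was thus one of 3 tested class I genes of the region that did not pass.

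Class I-like genes outside the region also rose where they could be tested. All 4 tested of 14 were higher, with a median log2 fold change of 2.33. Mr1, which presents vitamin metabolites, went from 0.664 ± 0.241 to 8.33 ± 1.64 CPM, Hfe, of iron control, from 0.863 ± 0.649 to 5.21 ± 1.71 CPM, and Cd1d1, which presents lipids, from 1.40 ± 0.49 to 5.97 ± 2.48 CPM (SD, n = 6 each). The neonatal Fc receptor gene Fcgrt rose by 1.07 ± 0.26 SE. None of the 7 class I receptor genes with a row had enough counts to be tested.

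Few of the other tested genes within 50 kb of a member passed. Within 50 kb of a member lay 24 other protein-coding genes, of which 14 were tested: 1 was higher, 1 lower and 12 did not pass, with a median log2 fold change of 0.03. Prr3, beside the T genes, rose by 0.31 ± 0.10 SE (adjusted p = 0.0276), and Atp6v1g2, near H2-D1, fell by 0.45 on the log2 scale (adjusted p = 0.00134). Gnl1, within 50 kb of H2-T24, H2-T23 and H2-T22, stood at 0.20 ± 0.11 SE (adjusted p = 0.217). Among neighbours with too few counts to be tested, Gm11127 went from 0 to 61 counts and Gm6034 from 13 to 112. Olfr99 went from 0 to 34, Olfr98 from 0 to 23, H2-Ke6 from 36 to 49 and Gm16181 from 16 to 6. The other Olfr genes held 2 counts or none. Gm11127 shares stretches of 100 bases with H2-D1, H2-T22 and H2-T23, so the source of its reads is uncertain.

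The genes whose deviations from the group means were most like those of the 8 heavy chains that passed, over all 12 libraries and among 10593 genes compared, were Fgfrl1 (r = 0.938), Slc35e4 (0.935), Ganab (0.926), Nelfcd (0.925) and Aldh7a1 (0.923). Fgfrl1 encodes a receptor of the fibroblast growth factor family and went from 22.01 ± 2.97 to 50.3 ± 13.6 CPM (SD, n = 6 each). Ganab encodes a glucosidase subunit that trims new glycoproteins in the endoplasmic reticulum and went from 199 ± 12.2 to 247 ± 34.9 CPM. Slc35e4 and Nelfcd did not pass between the groups (adjusted p = 0.462 and 0.511). These r values describe shared ups and downs among 12 libraries and carry no test.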

How the data were processed

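Poly(A) RNA was sequenced from 12 libraries, 6 Control and 6 IFNG, grouped by title. The authors deposited raw counts per gene, not normalized. Per the submitters' processing notes, STAR 2.4 and DESeq2 were used and the builds GRCm39 and mm10 named, with no role given; for the counter, strand setting and annotation, none is given in the sources used here. Symbols for 42462 of 43629 identifiers, lengths and transcripts came from GENCODE M21 (GRCm38), promoters from RefSeq (GRCm38.p6).

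The main test was edgeR 4.0.16 in R 4.3.3 (TMM, filterByExpr, quasi-likelihood F-test, Benjamini-Hochberg at 0.05, no block). Standard errors were obtained from the fold change and the F statistic. CPM use TMM-scaled totals. On simulated counts (14717 genes) 49% of 100 genes altered 1.5-fold and 80% of 100 altered 2-fold were called, with 11 false of 140 calls. Pairs of libraries of a group differed by a chi-square of at least 7.04 per gene, so all counted separately. Intervals cover counting error only. Alternatives were other scalings, filters, DESeq2 1.42.0, limma-voom (limma 3.58.1), the replicate block and each library left out.

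Members, lists and alternatives were chosen with earlier results of these data known. The rule for named genes took all 9 members, Ifng, of each list up to 3 genes of smallest p plus the most abundant one not passing, the 3 neighbours on the chromosome with the smallest p and the 5 genes most alike. Other genes are named as examples, chosen after their values were seen. Some genes that the rule names are not reported here.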

Additional observations from a re-analysis of the deposited data

Results flagged for a closer look

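Of 42 groups of 6 libraries checked, 4 held a library whose gap to the rest was large beside the range of its group; chance flags about 1 in 20. H2-Q4 in Control 1 stood at 0.634 CPM, against 1.42 to 1.74 CPM in the other Control libraries. H2-Q6 in Control 6 stood at 0.242 CPM, against 0 in the others. H2-M3 in Control 4 stood at 1.86 CPM, against 0.370 to 0.887 CPM. The log2 ratio of H2-T24 to H2-T22 in IFNG 5 was -5.75, against -3.68 to -3.38 in the other IFNG libraries. The Control values rest on few counts; the causes were not tested.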

How the results depend on the processing

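Over all 20 alternatives the 8 members that passed kept their call and direction, and H2-T24 did not pass in any. The log2 fold change of H2-Q6 was 13.20 without Control 6, where no Control count is left, and 9.93 to 10.45 otherwise. That of H2-T23 was 10.96 by limma-voom, against 10.16. Genes lower numbered 750 and genes higher 2954 with risen genes excluded from the totals, against 1492 and 2184; under it the median over all genes was 0.10 in place of -0.02 (log2), and 79.8% of calls were higher in place of 59.4%. On totals without a composition factor 51.3% of calls were higher. With each library left out, 1924 to 2332 genes were higher and 1047 to 1699 lower. Of the 5 ratios, 4 kept their call in every alternative. That of H2-Q6 to H2-Q7, which never passed, turned to 0.62 with 0.1 CPM added and ran from -0.16 to 0.13 with a library left out. By ranks the relation of H2-K1 and H2-D1 to Ifng did not pass (0.829, adjusted p = 0.0583 for each). The replicate number pairs no samples by the labels: same-numbered libraries correlated at -0.000964 to 0.124 in their deviations, and 2 of 6 Control libraries were closest to their own number. With the replicate block 2114 genes were higher and 1563 lower, and no member's call changed. The cause of these changes was not tested.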
